A study of Mus musculus with 12 samples.

Results

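WT kidney myeloid cells from the glyoxylate stone model were set against M1 macrophages grown from bone marrow, and the comparison asked which inflammatory genes the kidney cells shared with the M1 cells and which they lacked. The members were 6 of the series' 12 one-colour Agilent mouse arrays, chosen by sample title: 3 WT kidney arrays (replicates 1, 2 and 4) and 3 M1 arrays (replicates 2, 3 and 4). The kidney cells came from wild-type mice of the strain B6C3Fe a/a-Csf1op/J. The mice had received 80 mg/kg of glyoxylate for 6 days, and CD11b+/CD11c+ cells were then sorted from their kidneys by autoMACS. M1 cells were stimulated with LPS and GM-CSF, and M2 cells, shown here only for context, with IL-4 and M-CSF. The labels give the bone marrow cells the same strain name but not the genotype, the animal or whether it had received glyoxylate. The remaining 3 arrays were op/op kidney cells, from mice homozygous for the Csf1 mutation under the same treatment. The labels do not say that replicates were separate animals or cultures. The p-values therefore reflect only how far these particular arrays scattered, and that scatter may be technical.

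Glyoxylate is converted to oxalate, and calcium oxalate crystals then form in the kidney tubules. LPS acts on macrophages through Toll-like receptor 4. One branch of its signal activates NF-kB, which switches on genes of cytokines, chemokines and NF-kB's own inhibitors. Another branch leads to interferon beta, which is secreted, acts back on the cell and switches on the interferon-stimulated genes through its receptor. M1 cells are the usual culture model of classically activated macrophages, while IL-4 gives the alternatively activated M2 state.

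All levels below are log2 signals minus the 75th percentile of the array, so 0 is the signal at that percentile, and each log2 difference is WT kidney minus M1, given ± its SE from limma. A gene was called at a limma adjusted p under 0.05, and was counted as within 2-fold of M1 when the 95% interval of its difference lay between -1 and 1. Tissue and slide cannot be told apart: WT replicate 1 was alone on its slide, WT replicates 2 and 4 shared a slide with the op/op arrays, and all bone marrow arrays lay on a further slide. Arrays correlated at 0.945 to 0.973 within WT, at 0.991 within M1 and at 0.824 to 0.893 between them, across genes. The median SD of a gene was 0.374 among WT arrays and 0.155 among M1 arrays, and 76.3% to 79.5% of probes on WT arrays and 72.9% to 75.4% on M1 arrays were well above background. WT replicate 4 was the lowest kidney array for 24 of 30 macrophage identity genes and 23 of 34 interferon-stimulated genes, against 34.0% of all genes. In bulk RNA, fewer cells of a type and less RNA per cell cannot be told apart.

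The promoters of 8 genes show the sequence side of the comparison. Nfkbia, Cxcl1 and Cxcl2, which were not called different between kidney and M1 cells, carry a match to the kB-like motif GGGANNTTC, and Ifit1, Ifit3, Isg15 and Oas3, all far lower in kidney cells, carry matches to the interferon response-like motif GAAANNGAA. Cxcl10, also lower, and Nfkbia carry matches to both motifs, so the motifs do not divide these genes by their difference. Capitals mark matches on either strand, overlapping where runs are longer than 9 bases, and each stretch reads 5′ to 3′ on the gene's strand (RefSeq, GRCm38.p6).
Nfkbia, chr12:55492648-55492785, minus strand: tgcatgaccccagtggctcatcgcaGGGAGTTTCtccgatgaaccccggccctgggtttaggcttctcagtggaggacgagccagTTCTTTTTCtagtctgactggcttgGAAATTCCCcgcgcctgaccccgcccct
Cxcl1, chr5:90891149-90891209, plus strand: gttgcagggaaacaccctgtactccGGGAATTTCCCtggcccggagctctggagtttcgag
Cxcl2, chr5:90903777-90903837, plus strand: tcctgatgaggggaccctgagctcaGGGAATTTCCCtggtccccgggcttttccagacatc
Cxcl10, chr5:92349015-92349127, minus strand: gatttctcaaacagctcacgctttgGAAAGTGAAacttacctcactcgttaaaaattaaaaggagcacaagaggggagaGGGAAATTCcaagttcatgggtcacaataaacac
Ifit1, chr19:34640755-34640838, plus strand: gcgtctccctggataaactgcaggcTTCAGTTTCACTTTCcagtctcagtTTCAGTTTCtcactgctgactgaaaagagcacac
Ifit3, chr19:34583349-34583460, plus strand: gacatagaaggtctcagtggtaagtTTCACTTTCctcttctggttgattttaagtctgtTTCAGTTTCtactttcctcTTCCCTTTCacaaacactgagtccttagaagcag
Isg15, chr4:156200851-156200921, minus strand: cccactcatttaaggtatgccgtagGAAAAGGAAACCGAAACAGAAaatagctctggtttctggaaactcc
Oas3, chr5:120777695-120777759, minus strand: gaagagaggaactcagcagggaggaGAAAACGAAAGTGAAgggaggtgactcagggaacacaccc

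These stretches were picked because they hold matches. Over the whole window of 300 bases around a start site, 3.94% of the 32851 promoters in the table held the kB-like motif and 8.56% the interferon response-like motif. A promoter was listed for 26 of the 34 tested interferon-stimulated genes, and 17 of these had a match to GAAANNGAA in at least 1 promoter, against 9.10% of all tested genes with a listed promoter. The kB-like motif was found in 5 of 17 chemokine ligands, 5 of 17 cytokines and 2 of 13 genes of the NF-kB list with a promoter, against 4.37% of the tested genes. Of the genes of the NF-kB list within 2-fold of M1, Nfkbia held a match, whereas no match lay in the listed windows of Nfkbie and Tnfaip3. The windows of Rela and Relb, also within 2-fold, are not reported here. A match describes the letters and does not show binding.

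Of 27957 genes tested, 59.9% were called: 35.2% higher and 24.7% lower in kidney cells. A further count, which can include called genes, put 29.4% within 2-fold, and the median difference of all genes was 0.24. Arrays of the 2 groups did not overlap for most genes: kidney arrays all lay above M1 for 10472 and all below for 7766. The cytokine and chemokine lists held more lower genes than this background. Of 24 tested cytokine genes 15 fell, 3 rose and 3 were within 2-fold, with a list median of -1.43. All 24 were well above background on every M1 array but only 17 on every WT array. The others were tested because of their M1 signal. When genes had to be well above background on all 6 arrays (the filter on all 6 arrays), 11 of 17 cytokines fell. Of 25 chemokine ligands 15 fell, 4 rose and 2 were within 2-fold, with a median of -2.40. Only 1 rose with slide as a random block or without M1 replicate 2. With the filter on all 6 arrays 13 of 23 fell. Cxcl13, Ccl11 and Il33 were not tested, since their probes were not well above background on every array of either group. The plot of called genes by list shows how far each list departed from the distribution of all genes.

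**Figure D1:**
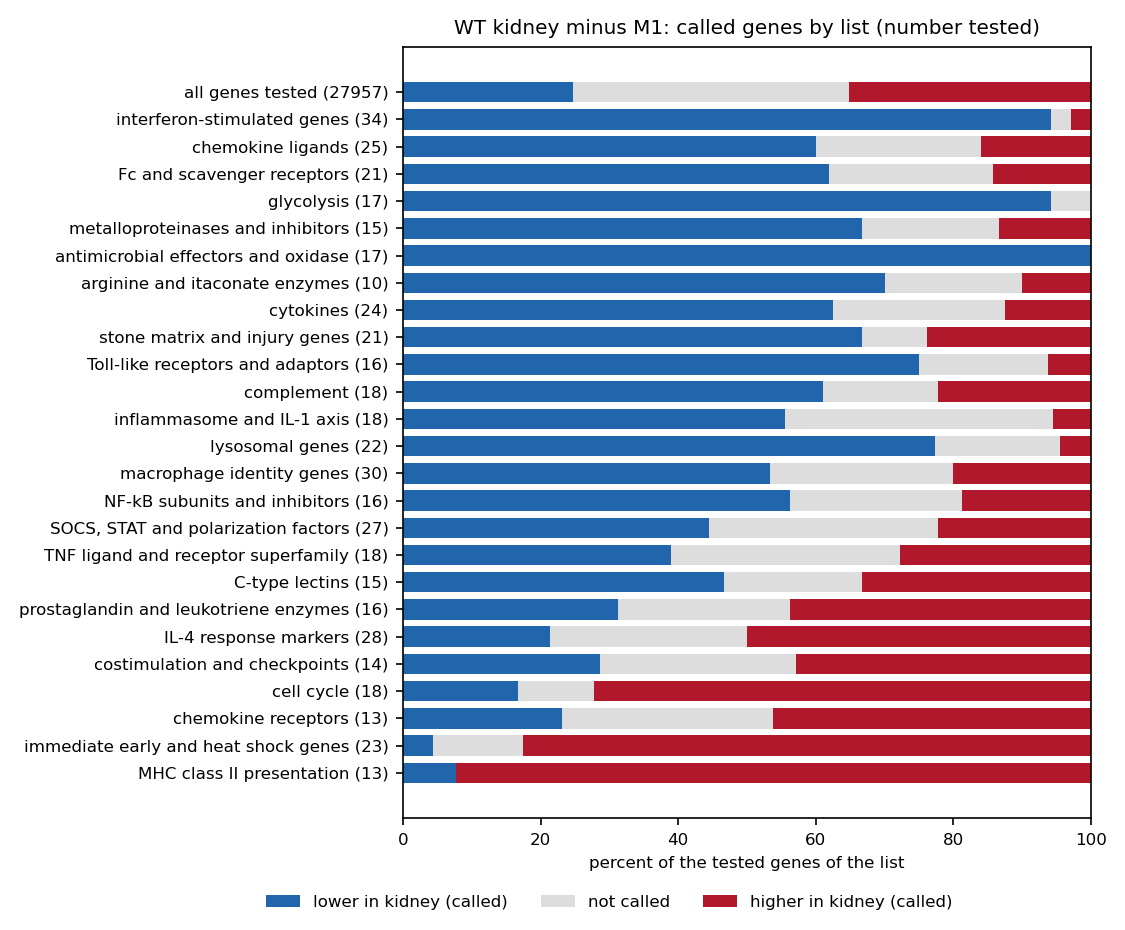
Percent of the tested genes of each list that were called lower (blue), not called (grey) or called higher (red) in WT kidney cells against M1 cells, with all 27957 tested genes in the top row and lists ordered by median difference. Interferon-stimulated, antimicrobial and glycolysis genes were almost all lower, and 12 of 13 MHC class II genes were higher.

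Il1b, the secreted interleukin that starts fever and neutrophil recruitment, was abundant in kidney cells (probe at chr2:129190347-129190406, mm9). It stood at 5.78, 5.84 and 5.25 on WT replicates 1, 2 and 4, and at 6.10, 6.02 and 5.92 on M1 replicates 2, 3 and 4. The kidney arrays lay just below the M1 arrays without overlap, by -0.39 ± 0.21 with a 95% interval of -0.85 to 0.06 (limma adjusted p = 0.123). M2 cells had a mean of -2.03, far below either. The interval left the 2-fold limits when WT replicate 2 was left out or when slide or replicate entered as a block, and Il1b was called lower after normexp background correction (-0.47).

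Ccl4, a chemokine for monocytes and lymphocytes, was level with M1 (chr11:83478052-83478111, mm9). Its values were 6.75, 7.08 and 6.77 in kidney cells and 6.77, 6.58 and 6.52 in M1 cells, with overlapping groups and a difference of 0.24 ± 0.19 (limma adjusted p = 0.293). The M2 mean was 1.84. Ccl3, its close relative, was at 3.59, 3.46 and 2.61 in kidney and 3.5, 3.87 and 3.88 in M1 cells. Its interval of -1.07 to 0.02 passed the 2-fold limit (limma adjusted p = 0.0863), and it was called lower without WT replicate 1 (-0.72) and after normexp correction (-0.53).

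The neutrophil chemokines Cxcl1 and Cxcl2 were near the M1 level in WT replicates 1 and 2 and lower in replicate 4. Cxcl1 was at 4.12, 4.37 and 2.66 in kidney and 4.05, 4.32 and 4.19 in M1 cells, and Cxcl2 at 3.66, 3.81 and 2.38 against 3.95, 4.06 and 3.54. Neither was called, and their intervals of -1.29 to 0.35 and -1.28 to 0.15 were too wide to place them within 2-fold. Without WT replicate 4 the differences were 0.06 for Cxcl1 and -0.11 for Cxcl2. Cxcl3, another ligand of the same receptor, was well above background on only 1 kidney array. Its M1 values were 2.90, 2.63 and 2.43, and all kidney arrays lay below them.

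Tnf, a cytokine of acute inflammation, was at 2.33, 2.67 and 0.40 in kidney and 3.25, 3.14 and 3.0 in M1 cells. WT replicate 4 was the low array, and the groups did not overlap. The difference of -1.33 ± 0.44 passed the test (limma adjusted p = 0.0216), but the call was lost under quantile normalization (adjusted p = 0.0838), when the other groups were left out of the fit (0.0685), with slide as a random block (0.137) and without M1 replicate 2 (0.0605). Tnf differed by -0.63 without WT replicate 4. The M2 mean was -1.82.

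Other cytokines of the M1 cells were far lower in kidney cells. Il1a, the membrane-bound partner of Il1b, was at -1.26, -0.60 and -3.07 in kidney and 4.41, 4.17 and 3.95 in M1 cells, a difference of -5.82 ± 0.58 (limma adjusted p = 8.48e-06). Il1rn, the antagonist of the IL-1 receptor, was at 0.04, 1.78 and -0.15 against 5.57, 5.60 and 5.86 (-5.12 ± 0.40). Il6, a driver of the acute phase, was at -1.38, -0.75 and -1.87 against 2.98, 3.32 and 2.88 (-4.39 ± 0.32). All kidney arrays lay below all M1 arrays for these 3 genes, as they did for 7766 of the 27957 genes tested. The M2 means were -3.05 for Il1a, 0.12 for Il1rn and -2.19 for Il6.

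Il10, which dampens macrophage activation, fell by 2.30, and Il18, a partner of IL-12 in inducing interferon gamma, fell by 3.53. Csf1, which encodes the M-CSF that the op mutation disrupts, fell by 3.40. Il12b, the shared subunit of IL-12 and IL-23, was dim in either cell type, at -4.41, -3.33 and -4.25 in kidney and -3.18, -3.49 and -3.25 in M1 cells. It was not called (-0.69 ± 0.29, limma adjusted p = 0.0608), though cyclic loess (-1.34), quantile normalization (-1.46), centring on genes above background on all arrays (-0.74) and leaving out WT replicate 2 (-1.02) each brought a call. The 3 cytokines that rose were Il27 by 1.23, Osm by 1.17 and Il16 by 0.95.

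Among the other chemokines, Ccl5, which attracts T cells, was the lowest of the list's genes measured on all 6 arrays. It was at 0.89, 1.80 and 1.37 in kidney and 7.93, 7.86 and 7.83 in M1 cells, a difference of -6.52 ± 0.21 (limma adjusted p = 6.07e-09). The CXCR3 ligands Cxcl10 and Cxcl9, both interferon targets, fell by 4.36 and 2.88. Cxcl10 was at 0.36, 0.86 and -0.70 in kidney and 4.64, 4.35 and 4.61 in M1 cells, and its M2 mean of -5.92 lay below the kidney level. A second Cxcl10 probe gave a smaller difference of -0.94. The monocyte chemokine Ccl2 was at 2.16, 3.65 and 1.57 in kidney and 6.10, 6.08 and 6.02 in M1 cells (-3.61 ± 0.39), and Ccl7, Ccl8 and Ccl12 fell by 3.76, 3.19 and 2.39. Ccl17, a ligand of CCR4, rose by 1.5. Cxcl16, a scavenger receptor and CXCR6 ligand, rose by 0.67 with a call that held in 11 of 21 alternatives, and Cx3cl1, the ligand of Cx3cr1, by 0.62 with a call that held in 15 of 21.

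**Figure D2:**
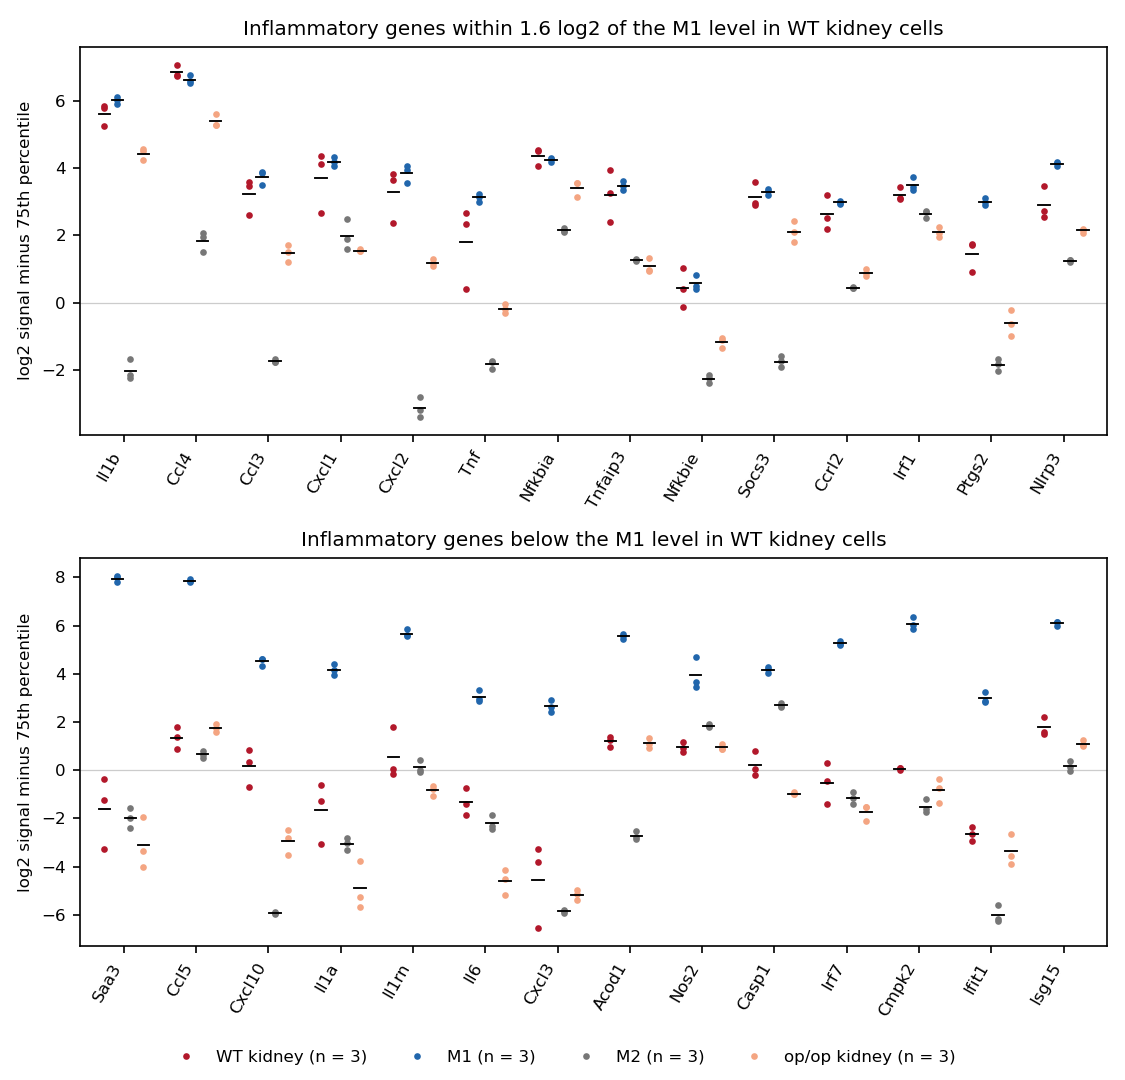
Level of each gene on each array (log2 signal minus the 75th percentile of the array), with a bar at the mean of 3 arrays for WT kidney (dark red), M1 (blue), M2 (grey) and op/op kidney (light red). In the upper panel the kidney arrays lie within 1.6 of M1 on average and above M2, and in the lower panel every kidney array lies below every M1 array.

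Of 13 chemokine receptors tested, 6 rose, 3 fell and 1 was within 2-fold, with a median of 1.11, beside 35.2% of all genes higher and 24.7% lower. Cx3cr1, the fractalkine receptor of resident kidney macrophages and patrolling monocytes, was at 4.37, 5.24 and 4.28 in kidney and -4.52, -3.64 and -3.77 in M1 cells (8.61 ± 0.33, limma adjusted p = 1.6e-08, chr9:119957811-119957870, mm9). It was well above background on 2 of the 3 M1 arrays. Ccr2, the receptor for Ccl2 on inflammatory monocytes, rose by 5.90 ± 0.23, from a mean of -4.56 in M1 cells to 1.21, 1.82 and 1.0 in kidney cells. Cxcr4 rose by 4.42, and Ccr1 and Ccr3 fell by 2.24 and 2.45, though Ccr3 was not well above background on all 6 arrays. Ccrl2, an atypical receptor that LPS induces, was within 2-fold at 2.52, 3.2 and 2.19 against 3.03, 2.94 and 2.96, with an M2 mean of 0.44, but was called lower without WT replicate 2 (-0.62).

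The NF-kB list was mixed. Its 16 tested genes held 9 that fell, 3 that rose and 5 within 2-fold, with a median of -0.71. The share within 2-fold, 31.25%, was near the 29.4% of all genes, while more of the list fell than the 24.7% of all genes. The feedback inhibitor Nfkbia was at 4.54, 4.52 and 4.06 in kidney and 4.18, 4.28 and 4.31 in M1 cells (0.12 ± 0.18, limma adjusted p = 0.593), with an M2 mean of 2.16. Nfkbie, another inhibitor, was at 0.40, 1.04 and -0.13 against 0.49, 0.40 and 0.82, with an M2 mean of -2.26. The kidney and M1 arrays overlapped for both genes, and both stayed within 2-fold under every alternative, although Nfkbia was called higher under quantile normalization (0.46).

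Tnfaip3, the A20 enzyme that ends NF-kB signalling, was at 3.26, 3.95 and 2.39 in kidney and 3.63, 3.47 and 3.35 in M1 cells (-0.28 ± 0.31), with an M2 mean of 1.26. It was called lower without WT replicate 2 (-0.66), and its interval left the 2-fold limits under 9 alternatives. Rela, the transactivating subunit, differed by -0.02 ± 0.15, and its M2 mean of 1.53 lay close to the levels of 2.13 to 2.35 on all 6 arrays. The subunit genes Nfkb1 and Nfkb2 fell by 1.35 and 1.6. Ikbke, a kinase of the interferon branch, fell by 5.03, from 2.82 to 2.89 in M1 cells to -2.51, -1.55 and -2.46 in kidney cells.

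Nfkbiz, a nuclear cofactor that helps NF-kB reach late genes, was higher in kidney cells. It stood at 2.51, 2.51 and 2.20 there and at -0.13, 0.15 and -0.15 in M1 cells (2.45 ± 0.20, limma adjusted p = 1.88e-06). Rel, the lymphoid and myeloid subunit, rose by 1.48 but was dim. Relb rose by 0.54 on its brightest probe and was also within 2-fold, while its other probes gave -1.5 and -1.22, and the mean of its probes was lower in kidney (-0.73, adjusted p = 0.00176).

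Outside the NF-kB list, Socs3, the inhibitor of IL-6 receptor signalling, matched M1 at 2.89, 3.58 and 2.97 against 3.31, 3.2 and 3.39 (-0.15 ± 0.22), with an M2 mean of -1.76. Irf1, an early transcription factor of the interferon response, was at 3.11, 3.44 and 3.08 against 3.43, 3.35 and 3.75 (-0.29 ± 0.17), and its M2 mean was 2.65. Aim2, a sensor of cytosolic DNA, differed by -0.03 ± 0.19 and Cebpb, a transcription factor of myeloid activation, by -0.09 ± 0.14. These 4 genes stayed within 2-fold under every alternative. Socs1, the inhibitor of interferon receptor signalling, fell by 1.86.

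Interferon-stimulated genes were almost all lower in kidney cells. Of 34 tested, 32 fell, 1 rose and none was within 2-fold, and the median difference was -3.89. That is 94.1% lower against 24.7% of all genes, and 32 or 33 were lower under each alternative other than the 2-fold threshold. Ifit1, which binds viral RNA, was at -2.63, -2.36 and -2.95 in kidney and 2.84, 2.89 and 3.25 in M1 cells (-5.64 ± 0.31, limma adjusted p = 1.45e-07, chr19:34723796-34723855, mm9). Irf7, which amplifies interferon production, was at -0.44, 0.32 and -1.42 against 5.35, 5.26 and 5.20 (-5.78 ± 0.35).

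Cmpk2, a mitochondrial nucleotide kinase, was at -0.01, 0.08 and 0.11 in kidney against 6.04, 5.85 and 6.38 in M1 cells, a difference of -6.03 ± 0.25. Isg15, a ubiquitin-like modifier, was at 1.6, 2.23 and 1.5 against 6.16, 5.98 and 6.15 (-4.32 ± 0.20). Ifit3 and Oas3, whose promoters are shown above, fell by 4.98 and 5.48. Kidney and M1 arrays were apart without overlap for all of them. Kidney levels were nevertheless above M2 for several: the M2 means were -6.01 for Ifit1, -1.51 for Cmpk2, -2.51 for Ifit3 and 0.16 for Isg15.

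Of the signalling genes, Stat2 fell by 2.80 and Irf9 by 1.14. Ifnb1, which encodes interferon beta, was not called, at 0.67, 0.26 and -0.57 in kidney and -1.40, -1.53 and -0.13 in M1 cells (1.14 ± 0.51, limma adjusted p = 0.0722). It was called higher under normexp correction, with a floor on low signals, without WT replicate 4 and without M1 replicate 4. The 2 members of the list that did not pass as lower, Iigp1 (-0.56 ± 0.42) and Gbp5, encode interferon-inducible GTPases. Another Iigp1 probe, above background on all 6 arrays, gave -4.38. Gbp5 rose by 0.95 on its brightest probe, while its other probe gave -1.70 and the mean of its probes was -0.37 (adjusted p = 0.239).

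**Figure D3:**
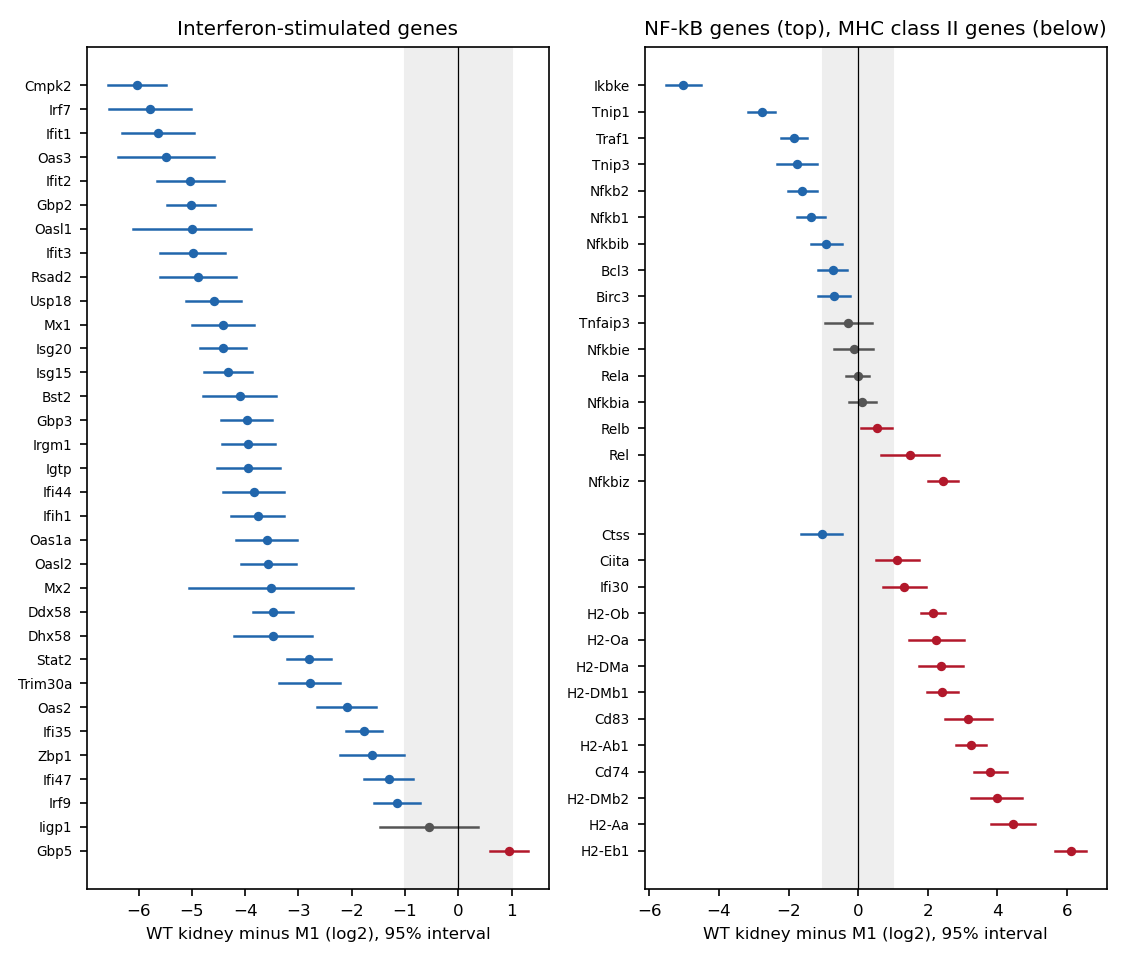
Difference of WT kidney minus M1 with its 95% interval for the interferon-stimulated genes (left) and for the NF-kB and MHC class II lists (right), in blue where called lower, red where called higher and grey where not called. The grey band marks -1 to 1. The points of all plotted interferon-stimulated genes but Iigp1 and Gbp5 lie left of the band, NF-kB genes lie on both sides and within it, and the points of all MHC class II genes but Ctss lie to its right.

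Upstream of these programmes, 12 of 16 Toll-like receptors and adaptors fell and 1 rose (median -1.22), beside 24.7% and 35.2% of all genes. With the filter on all 6 arrays 10 of 14 fell. Tlr4, the LPS receptor, was at -0.27, -0.36 and -1.01 in kidney and 0.80, 0.46 and 0.85 in M1 cells (-1.25 ± 0.26, limma adjusted p = 0.00140). Cd14, its co-receptor, fell by 1.52, Ly96, its partner MD-2, by 2.79, and the adaptor Myd88 by 1.52. Tlr2, a receptor for lipoproteins, fell by 0.90, a call lost with slide as a random block and with array weights, from 1.59, 1.27 and 1.57 to 0.68, 1.13 and -0.06, against an M2 mean of -2.93. Irak3, an inhibitory kinase of the pathway, fell by 5.18. Tlr9, the receptor for unmethylated DNA, rose by 1.0.

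The inflammasome list held 10 of 18 genes that fell, 1 that rose and 3 within 2-fold (median -1.14). Among all genes 24.7% fell, 35.2% rose and 29.4% were within 2-fold. Nlrp3, the sensor of crystals and potassium loss, was at 2.71, 3.48 and 2.55 in kidney and 4.19, 4.07 and 4.14 in M1 cells. It fell by 1.22 (SE 0.21, limma adjusted p = 0.000481) and lay above the M2 mean of 1.25. Casp1, the protease that matures IL-1 beta and IL-18, fell by 3.95, Casp4 by 2.50 and Gsdmd, the pore former of pyroptosis, by 2.38.

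Il1r2, the decoy receptor that soaks up IL-1, rose by 4.36 ± 0.26. It was at 2.67, 2.28 and 1.54 in kidney and -2.11, -2.36 and -2.14 in M1 cells (limma adjusted p = 2.32e-07). Neutrophils also express Il1b and Il1r2, and their markers moved in different directions. Of 14 tested, 3 rose and 8 fell, beside 35.2% and 24.7% of all genes. With the filter on all 6 arrays 2 of 11 rose and 7 fell. Ngp, Ltf and Mmp8, granule genes, fell by 4.88, 3.89 and 4.17, while Elane (not with slide as a random block), Cxcr2 and Retnlg rose, Retnlg by at least 23.5-fold, since no M1 array was well above background. The summed signal of the list was 252 to 309 in kidney and 260 to 318 in M1 cells, in multiples of the 75th percentile. That sum was 256 to 287 in M2 cells and 319 to 361 in op/op kidney cells, so a like sum was not particular to kidney and M1 cells. Of the 14, 12 were well above background on every kidney array. The part of neutrophils in the Il1b level was not tested.

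Antimicrobial effector genes were lower in kidney cells. All 17 tested antimicrobial and oxidase genes fell, against 24.7% of all genes, and their median was -1.61. With slide as a random block 12 of them fell. Saa3, an acute-phase apolipoprotein, was the lowest of all genes measured on all 6 arrays, at -0.36, -1.23 and -3.25 in kidney against 8.07, 8.01 and 7.80 in M1 cells (-9.57 ± 0.65, limma adjusted p = 5.76e-07, chr7:53970389-53970448, mm9). Lcn2, which withholds iron from bacteria, fell by 3.89. Of the oxidase subunits, Cybb fell by 1.77, Ncf1 by 1.33 and Cyba by 1.08, or by 2.59 on another Cyba probe.

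Of 10 arginine and itaconate genes 7 fell and 1 rose, beside 24.7% and 35.2% of all genes. With the filter on all 6 arrays 8 were tested, of which 6 fell and 0 rose. Nos2, the inducible nitric oxide synthase, was at 0.93, 1.16 and 0.78 in kidney and 3.65, 3.45 and 4.72 in M1 cells (-2.98 ± 0.28), and its M2 mean of 1.84 also lay above the kidney arrays. Acod1, which makes itaconate, was at 1.28, 1.37 and 0.99 against 5.58, 5.44 and 5.65 (-4.34 ± 0.17, limma adjusted p = 1.75e-08), with an M2 mean of -2.72. Slc7a2, an arginine importer, fell by 5.90, and Arg1, the arginase of M2 cells, fell by 1.98 and was dim in kidney and M1 cells alike. Kynu, an enzyme of tryptophan breakdown, rose by 2.94, but it was not well above background on all 6 arrays.

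Of 16 prostaglandin and leukotriene genes 7 rose (4 with slide as a random block) and 5 fell, with a median of 0.18. As a list they did not stand far from all genes, of which 35.2% rose and 24.7% fell. Ptgs2, the inducible cyclooxygenase, was at 1.72, 1.73 and 0.90 in kidney and 3.0, 3.12 and 2.89 in M1 cells (-1.55 ± 0.25, limma adjusted p = 0.000303), well above the M2 mean of -1.85. Ptgs1, the constitutive form, and Hpgd, which degrades prostaglandins, rose by 2.29 and 4.04. Ptges, the synthase downstream of Ptgs2, was level on its brightest probe (0.15) but lower on its other probe (-6.73), and the mean of both was -3.29.

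Probes also disagreed among genes near the M1 level. Of 60 members of the pathway lists within 2-fold of M1, 29 had another probe above background, and for 14 of these that probe was over 2-fold apart, lower in kidney for 11. For Itgam, which encodes the sorting antigen CD11b, the brightest probe stood at 8.20, 7.44 and 7.52 in kidney and 7.10, 7.15 and 7.33 in M1 cells, with an M2 mean of 6.97, while its other probes gave -1.81 and -1.84. The call on the brightest probe held in 6 of 21 alternatives. Tnfrsf9 gave 0.52 on its brightest probe and -3.08 on another, and Tlr8 -0.28 and -3.44. Cxcl11, at 7.23 to 7.75 in kidney, 6.83 to 7.03 in M1 and a mean of 6.74 in M2 cells, and Naip5, with an M2 mean of 6.74, were near one level in all these cells. Across called list members, 103 of 120 other probes shared the direction of the brightest.

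Complement, scavenger and recognition genes were mostly lower. Of 21 Fc and scavenger receptors 13 fell and 3 rose (median -2.23), and of 18 complement genes 11 fell and 4 rose (median -1.17). Among all genes 24.7% fell and 35.2% rose. With the filter on all 6 arrays 11 of 19 Fc and scavenger receptors fell (median -1.30). Marco, a scavenger receptor for particles, was at -1.23, 0.52 and -1.06 in kidney and 8.53, 8.28 and 8.19 in M1 cells (-8.92 ± 0.38, limma adjusted p = 2.65e-08). Cfb, factor B of the alternative pathway, fell by 4.44, and Fcgr1, the high-affinity IgG receptor, by 3.95. Of the C1q chains, C1qa (-0.12 ± 0.50) and C1qc (-0.44 ± 0.28) were not called, with intervals too wide to place them within 2-fold. C1qb fell by 1.12, with a call that held in 15 of 21 alternatives.

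Macrophage identity genes checked the label. Kidney cells expressed Cd68, Tyrobp, Csf1r, Mpeg1 and C1qc on all 3 arrays, with levels of 4.17 to 5.37 for Cd68. Yet 16 of 30 tested identity genes fell and 6 rose (median -1.0), beside 24.7% and 35.2% of all genes. Only 3 rose with slide as a random block. Adgre1, which encodes F4/80, was at 2.25, 3.32 and 1.44 in kidney and 5.62, 5.71 and 5.68 in M1 cells (-3.34 ± 0.35). Itgax, which encodes the sorting antigen CD11c, was at 1.58, 2.18 and 1.52 against -1.21, -1.26 and -1.02 (2.92 ± 0.19, limma adjusted p = 3.73e-07). Lyz2 fell by 2.35 and Spi1, the myeloid factor PU.1, by 1.78.

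Kidney RNA of other cell types was present on the WT arrays. Of 21 proximal tubule markers 20 rose and 0 fell, and their summed signal was 152 to 304 on kidney arrays and 8.98 to 11.9 on M1 arrays. All 21 were well above background on every kidney array, but only 9 on every M1 array. The others were tested only because of their kidney signal, so their detection there was set by the filter. With the filter on all 6 arrays 8 of 9 rose. Slc34a1, the tubular phosphate transporter, was at 6.05, 4.68 and 5.37 in kidney and -2.89, -2.54 and -2.90 in M1 cells, and another probe gave a difference of 5.51. Umod, the uromodulin of the thick ascending limb, was at least 1511-fold higher in kidney cells, at 6.30, 5.78 and 5.01 against no M1 array well above background. Of 13 endothelial markers 12 rose (9 of 10 with the filter on all 6 arrays), and their sum was 31.8 to 47.7 against 12.6 to 13.4. The M1 arrays in turn held more signal of fibroblast genes. Of 10 tested fibroblast and mural markers 8 fell and 1, Rgs5, rose, against 24.7% of all genes lower and 35.2% higher. With the filter on all 6 arrays 7 of 8 fell, and Rgs5 was not tested. Col1a1, Col1a2, Dcn and Col3a1 were lower in kidney, with differences from -5.65 to -4.27. The part of these cells in the differences above was not tested.

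**Figure D4:**
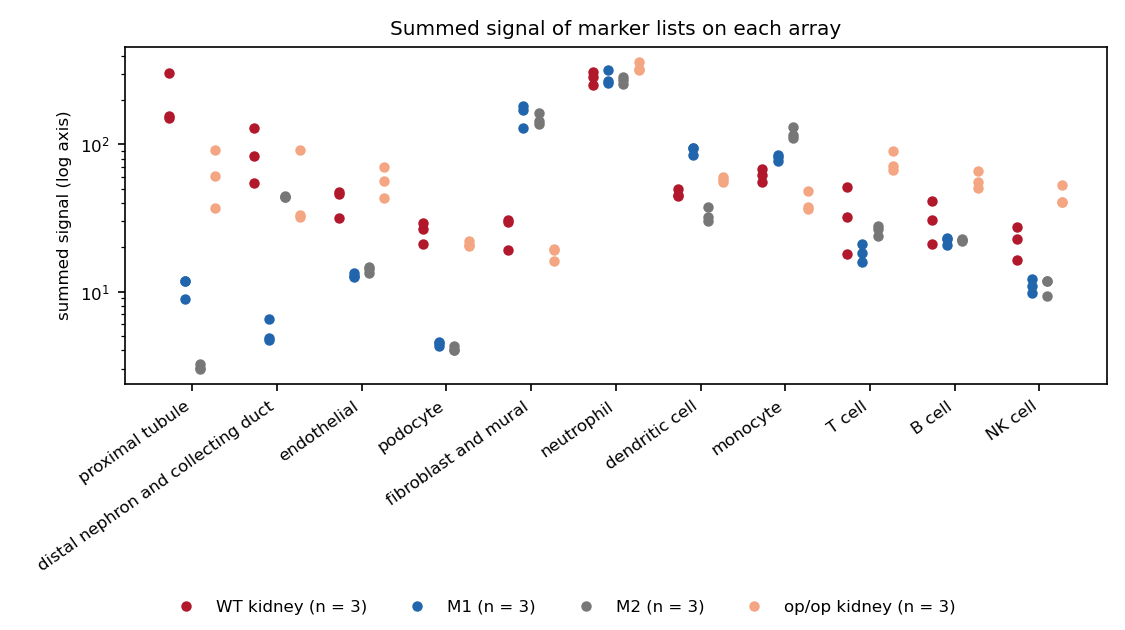
Summed signal of each marker list (sum of signals in multiples of the array's 75th percentile, log axis) on each array of WT kidney (dark red), M1 (blue), M2 (grey) and op/op kidney (light red). Proximal tubule, distal nephron, endothelial and podocyte sums were higher on kidney arrays than on M1 arrays, and fibroblast and mural sums lower.

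Genes of antigen presentation were higher in kidney than in M1 cells. Of 13 MHC class II genes 12 rose and 1 fell, with a median of 2.41, against 35.2% of all genes higher, and 12 rose under every alternative other than the 2-fold threshold. H2-Eb1, a class II beta chain, was at 5.31, 5.40 and 4.66 in kidney and -0.84, -1.04 and -1.04 in M1 cells (6.10 ± 0.20, limma adjusted p = 6.86e-09, chr17:34453075-34453134, mm9). Cd74, the invariant chain, was at 7.38, 7.44 and 6.77 against 3.62, 3.25 and 3.31 (3.80 ± 0.22). Ciita, the master regulator of the class II genes, rose by 1.13, and the exception was Ctss, a lysosomal protease that trims Cd74, which fell by 1.05. The M2 means were -0.33 for H2-Eb1 and 3.69 for Cd74.

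Dendritic cell markers were less uniform. Of 14 tested, 9 rose and 1 fell, with a median of 1.34, against 35.2% of all genes higher. With slide as a random block 5 rose. Only 9 of the 14 were well above background on every M1 array, and the others were tested because of their kidney signal. With the filter on all 6 arrays 5 of 9 rose, with a median of 0.56. The summed signal of all 14 was lower in kidney (44.7 to 49.6) than in M1 cells (84.9 to 95). Bst2, an interferon-stimulated gene in that list, was at 5.92 to 6.19 in M1 cells. Clec9a, the receptor of cross-presenting dendritic cells, rose by 4.80 though it was well above background on 1 M1 array only, and Flt3, the receptor of the dendritic cell growth factor, by 1.81. Cd209a, a lectin of monocyte-derived dendritic cells, was at 0.55, 0.78 and 0.09 and at least 40.5-fold higher than in M1 cells, where no array was well above background. Of 11 B cell markers, a further class II expressing type, 6 rose (3 with slide as a random block) and 0 fell. Among all genes 35.2% rose and 24.7% fell. Cd79a was higher by 2.62. With the filter on all 6 arrays 4 of 9 B cell markers rose. The part of dendritic and B cells in the class II levels was not tested.

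Costimulatory genes were mixed, with 6 of 14 higher and 4 lower. These shares of 42.9% and 28.6% were not far from the 35.2% and 24.7% of all genes. Cd86 was at 0.65, 1.30 and 0.39 in kidney and 0.27, 0.05 and 0.33 in M1 cells, not called (0.56 ± 0.25, limma adjusted p = 0.0709) but far above the M2 mean of -3.19, and it was called higher without WT replicate 4 (0.76), under normexp correction (0.48), with array weights (0.90) and with a floor on low signals (0.56). Cd80 rose by 0.85 on its brightest probe, with a call that held in 17 of 21 alternatives, and gave -0.64 on the other. Cd40 fell by 1.85, and Cd274, the checkpoint ligand PD-L1, fell by 4.55 from 5.10, 4.91 and 5.13 to 0.30, 0.93 and 0.24. Tnfsf9, the ligand of 4-1BB, rose by 3.77 ± 0.18, and Icosl, the ligand of ICOS on T cells, by 1.97.

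Of 28 tested genes that mark the IL-4 response, 14 rose and 6 fell (median 0.47), beside 35.2% of all genes higher and 24.7% lower. With slide as a random block 8 rose. Only 24 of the 28 were well above background on every M1 array. With the filter on all 6 arrays 10 of 23 rose, with a median of 0.21. Mrc1, the mannose receptor, was at 0.61, 1.69 and -0.26 in kidney and -2.07, -2.32 and -2.06 in M1 cells (2.83 ± 0.39), still below the M2 mean of 4.28. Clec10a, a galactose lectin, was at 4.68, 4.64 and 5.0 against 2.61, 2.44 and 2.15 (2.37 ± 0.20), beside an M2 mean of 4.72. Irf4 and Egr2, transcription factors of the IL-4 response, rose by 3.01 and 1.76, though Irf4 was not well above background on all 6 arrays. Chil3, a chitinase-like lectin, fell by 2.60, and Fn1, fibronectin, by 2.06. Retnla, a hallmark of M2 cells, was not well above background on all arrays of either group and was not tested.

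**Figure D5:**
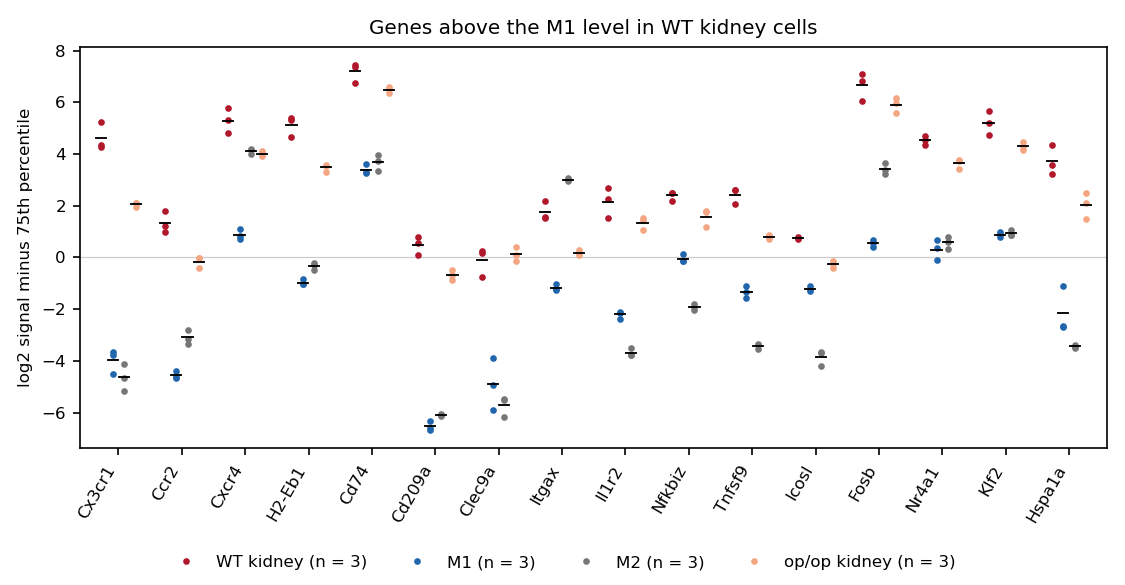
Level of genes called higher in WT kidney than in M1 cells on each array (log2 signal minus the 75th percentile), with a bar at the mean of 3 arrays per group and colours as labelled. Every kidney array lies above every M1 array for each gene, while Itgax and Cxcr4 are high in M2 cells too.

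Immediate early and heat shock genes were also higher. Of 23 tested, 19 rose and 1 fell, against 35.2% and 24.7% of all genes, with a median of 1.36. Under the alternatives other than the 2-fold threshold 16 to 20 rose. Fosb, a subunit of AP-1, was at 6.82, 7.11 and 6.05 in kidney and 0.67, 0.56 and 0.40 in M1 cells (6.12 ± 0.26, limma adjusted p = 2.75e-08). Fos, Jun and Nr4a1 rose by 3.78, 3.33 and 4.24, and Klf2, a factor that shear and quiescence raise, by 4.31. Hspa1a, the inducible HSP70, was at 4.37, 3.58 and 3.25 against -2.68, -2.65 and -1.11. Zfp36, which destabilises cytokine transcripts, rose by 1.31. The op/op kidney mean of Fosb was 5.91. The part of these immediate early genes in the levels of Il1b, Cxcl1 or Nfkbia was not tested.

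Metabolic and lysosomal genes were lower in kidney cells. Of 17 glycolysis genes 16 fell, against 24.7% of all genes, with a median of -2.15. Pgk1 was at 2.86, 3.23 and 1.97 in kidney and 6.14, 6.00 and 5.96 in M1 cells (-3.35 ± 0.31), and Slc2a1, the glucose importer GLUT1, fell by 2.40. Hif1a, which drives glycolysis in LPS-treated cells, fell by 3.41 on its brightest probe, while another gave 0.11. Of 22 lysosomal genes 17 fell and 1 rose, beside 24.7% and 35.2% of all genes, and Ctsd, cathepsin D, was lower by 2.89.

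Genes of stone matrix and injury were largely lower as well, with 14 of 21 fallen and 5 risen, against 24.7% and 35.2% of all genes. Gpnmb, a lysosomal glycoprotein of lipid-laden macrophages, was at -6.38, -0.11 and -5.77 in kidney, where WT replicate 2 stood apart, against 4.98, 4.97 and 5.33 in M1 cells, and it was well above background on only 1 kidney array. Spp1, the osteopontin of stone matrix, was at 1.2, 2.48 and 0.08 in kidney against 2.78, 2.73 and 2.61 (-1.45 ± 0.50, limma adjusted p = 0.0261), with a call that held in 12 of 21 alternatives and a difference of -0.87 without WT replicate 4. Vim and Fn1 fell by 1.93 and 2.06, and Cd44, an osteopontin receptor, was within 2-fold on its brightest probe. Other Cd44 probes gave 0.15, -0.01 and -1.66. The 5 that rose were Clu, Krt8, Krt18, Mgp and Havcr1, the tubule injury marker KIM-1, which rose by 4.33, or by 1.88 on another probe. With the filter on all 6 arrays 4 of 19 rose, and Krt8 was not tested. Krt18 was not called with slide as a random block. Of 15 metalloproteinase genes 10 fell and 2 rose, beside 24.7% and 35.2% of all genes, and with the filter on all 6 arrays 8 of 13 fell. Mmp12, macrophage elastase, was not called on its brightest probe (-0.47 ± 0.37), and its other probe was well above background on no M1 array.

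Across all genes, in the lists or not, large differences lay in both directions. The lowest among genes measured on all 6 arrays after Saa3 and Marco were Fpr1, the formyl peptide receptor (-7.11), Inhba, an activin subunit (-7.00), and Ptx3, a soluble pattern recognition molecule (-6.84). The highest were Kap (9.63), Slc34a1 (8.14), Fxyd2 (7.99) and Slc27a2 (7.58), all genes of the kidney tubule. Grem1 and Serpinb2 were at least 387-fold and 221-fold higher in M1 cells, where kidney arrays were not well above background. Each such bound divides the brighter group's mean by the dimmest signal that still counted as well above background on the dim arrays, or by the probe's own signal where that was higher.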

How the data were processed

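The series holds 12 one-colour Agilent arrays in 4 groups of 3. Per the file headers, the deposited scanner files give spot intensity from Agilent Feature Extraction, with background already subtracted in the processed signal. The authors also deposited log2 values, which correlated with the scanner signals at 1 on every array, with array medians of -2.46 to -1.87. Group membership came from the sample titles, and 0 columns of sample values were left unmapped. Here log2 processed signal minus the array's 75th percentile was taken, spots of a probe were averaged, control and outlier-flagged spots were left out, and each gene was read on its brightest probe. Of 28261 genes, the 27957 with a probe well above background on every array of WT or M1 were tested. Differences come from limma 3.58.1 (lmFit and eBayes, R 4.3.3) over all 12 arrays, with Benjamini-Hochberg adjustment, and the script was tested on simulated data. Tables were made with pandas 2.3.3 and plots with matplotlib 3.10.9. The number of arrays limits the precision.

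Probe positions are mm9, from the files, and promoters GRCm38.p6, from RefSeq. The members and gene lists were chosen with earlier results of these data known. Genes were named by a rule: a panel, the 10 highest and 10 lowest called genes above background on all 6 arrays, up to 4 called members of each list in each direction by p and 4 within 2-fold, and the 5 largest bounds in each direction. A further 24 genes named in the text were chosen after their values were seen: Cd68, Ciita, Cxcl3, Cyba, Egr2, Fos, Gpnmb, Gsdmd, Ifit3, Ifnb1, Iigp1, Irf9, Krt18, Lyz2, Mpeg1, Myd88, Ncf1, Nfkb1, Oas3, Pgk1, Slc2a1, Spi1, Tyrobp and Zfp36. Alternatives changed the background correction, normalization, filter, probe rule, model, slide or replicate block, threshold and the replicates used. Some members counted in the lists are not reported here by name.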

Additional observations from a re-analysis of the deposited data

How the results depend on the processing

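Of 258 named genes that were called, 214 kept their direction and call under each of the 21 alternatives that tested them. Of 73 within 2-fold of M1, 30 stayed within it. The filter on all 6 arrays tested only 285 of the 325 named genes. Calls numbered 10674 at a minimum of 2-fold, with 6378 higher and 4296 lower. With slide as a random block (consensus correlation 0.368) 6547 were higher and 5138 were within 2-fold, and normexp background correction put 14460 within 2-fold. Leaving out 1 replicate gave 14229 to 18407 calls, 8283 to 11110 higher, 5946 to 7297 lower and 6535 to 9007 within 2-fold. The median difference of all genes was 0.04 under quantile normalization and 0.05 under cyclic loess.

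Averaging a gene's probes reversed Ptges (-3.29), Itgam (-1.04), Mmp12 (1.76), Gbp5 (-0.37), Relb (-0.73), Il4ra (-0.76) and Tnfrsf9 (-1.28). For Mmp12 the added probe was above background on no M1 array, and otherwise the cause was not tested. WT and M1 shared replicate numbers 2 and 4 only, and deviations from the group means correlated at 0.22 for number 2 and -0.03 for number 4, across genes, so the numbers were not taken as pairs. With a replicate block 14844 genes were called. Signal near background limits dim genes such as Il12b.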
